A study of Mus musculus with 16 samples.

Results

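Neutrophil granule genes were followed through every library of a mouse liver study: S100a8, S100a9, Ltf, Ngp, Camp, Lcn2, Mpo, Elane, Mmp8 and Retnlg. The 10 genes were taken by symbol from the 47729 gene rows of the count files, and their level is given as CPM, the counts of a gene scaled to all reads counted on genes in that library. The 16 libraries came from endothelial cells (EC), hepatic stellate cells (HSC), Kupffer cells (KC, the resident macrophages of the liver) and hepatocytes (HEP), with 2 libraries labelled WT and 2 labelled KO for each cell type. KO stands for mice with loxP sites around exon 7 of Zeb2, the tamoxifen-inducible Cre recombinase CreERT2 under the endothelial Cdh5 promoter and an R26R CAG-boosted eGFP reporter, and WT stands for their Cre-negative littermates. HEP were separated by centrifugation, and from the remaining cells, after lysis of erythrocytes, HSC were sorted by their UV signal, KC by F4/80 and EC by a pan-endothelial antibody, with no neutrophil marker named among the gates. Both genotypes received tamoxifen at 2 mg a day for 5 days. By the methods of the study, males were used at 8 weeks of age unless stated otherwise and RNA was studied 2 weeks after tamoxifen. The study asked what loss of Zeb2 in the endothelium does to gene expression in these neighbouring cells. The deletion is driven only in endothelium, so that KC, HSC and HEP labelled KO are cells from a KO liver and not cells meant to lack Zeb2 themselves.

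The libraries held 12872706 to 15690506 reads on genes, and 3 counts corresponded to 0.191 to 0.233 CPM. Each sorted fraction carried its own markers far above the others: the 10 KC markers summed to 44520 to 57607 CPM in KC and to at most 2461 CPM elsewhere, and the 10 EC markers to 15004 to 20163 CPM in EC and to at most 1227 CPM elsewhere. Hepatocyte markers were not confined to HEP, since they summed to 24702 CPM in EC WT 38 and to 2005 and 2838 CPM in the EC libraries labelled KO. Zeb2, the targeted gene, stood at 106 and 106 CPM in EC labelled WT and at 199 and 130.1 CPM in EC labelled KO. These are counts over the whole gene and do not separate exon 7, so they do not check the deletion, and the groups are called by their labels throughout. No label names the animal behind a library, so it is not known which fractions came from the same liver.

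Neutrophils pack their antimicrobial proteins into granules that are filled in sequence while the cell matures in the bone marrow. Primary granules, with myeloperoxidase (Mpo) and neutrophil elastase (Elane), are made first, at the promyelocyte stage. Specific granules, with lactoferrin (Ltf), neutrophilic granule protein (Ngp), the cathelicidin precursor (Camp), lipocalin 2 (Lcn2) and the collagenase Mmp8, follow at the myelocyte stage, after which transcription of most granule genes declines. S100a8 and S100a9 encode the subunits of calprotectin, a cytosolic protein abundant in mature neutrophils and also made by monocytes. Retnlg encodes a resistin-like secreted protein of myeloid cells. Neutrophils are common in the liver sinusoids, and none of the 4 sorted cell types is a neutrophil. In a bulk library, fewer neutrophils and less RNA per neutrophil cannot be told apart.

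Neutrophil RNA was low throughout and was concentrated in a few libraries. Over the 9 members without Lcn2, which behaved differently and is described separately, the summed level was 28.5 and 149 CPM in EC labelled WT and 37.8 and 10.6 CPM in EC labelled KO. It was 10.1 and 13.7 CPM in HSC labelled WT and 4.98 and 65.1 CPM in HSC labelled KO. Kupffer cells gave 24.7 and 24.6 CPM under the WT label and 288 and 24.4 CPM under the KO label. Hepatocytes gave 2.49 and 3.14 CPM under the WT label and 16.6 and 5.66 CPM under the KO label. The highest library of each cell type exceeded the next by unlike factors: EC WT 38 by 3.93-fold, HSC KO 20 by 4.75-fold, KC KO 27 by 11.7-fold and HEP KO 25 by 2.93-fold. The other 3 KC libraries lay within 24.4 to 24.7 CPM of each other. KC KO 27, EC WT 38 and HSC KO 20 together held 70.8% of the summed CPM of these 9 genes over the 16 libraries. The high library was labelled KO in KC, HSC and HEP and WT in EC.

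**Figure D1:**
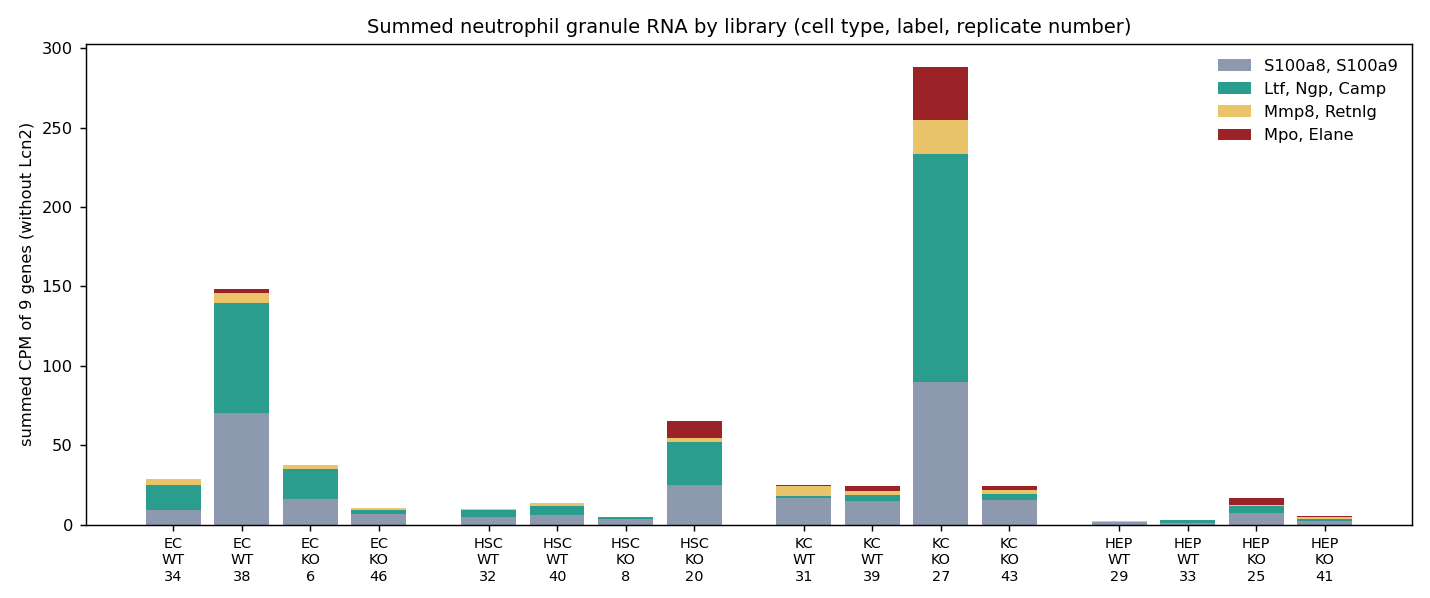
Summed CPM of the 9 genes without Lcn2 in each of the 16 libraries (linear axis from 0), stacked by S100a8 with S100a9, the specific granule genes Ltf, Ngp and Camp, Mmp8 with Retnlg, and the primary granule genes Mpo and Elane. The bar of KC KO 27 reaches 288 CPM and that of EC WT 38 149 CPM, HSC KO 20 reaches 65.1 CPM, and the other 13 libraries stay under 40 CPM.

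S100a8 and S100a9, which lie close together on chromosome 3 (GRCm38, 90668978 to 90670035 and 90692632 to 90695721), were the members with the highest level per length, at a mean of 14.7 and 15.3 CPM per kilobase of exon over the 16 libraries, and every library held more than 3 counts of each. S100a8 stood at 4.26 and 38.7 CPM in EC labelled WT against 7.38 and 2.57 CPM in EC labelled KO, and at 3.52 and 2.82 CPM in HSC labelled WT against 1.52 and 16.5 CPM in HSC labelled KO. In Kupffer cells it stood at 10.6 and 10.0 CPM under the WT label and at 52.5 and 6.23 CPM under the KO label, and in hepatocytes at 1.08 and 0.614 CPM against 4.0 and 1.28 CPM. Only in HEP did the labels not overlap, and there the counts were 9 to 62. S100a9 followed it closely, with 31.7 CPM in EC WT 38, 8.71 CPM in HSC KO 20, 37.5 CPM in KC KO 27 and 3.09 CPM in HEP KO 25, and at most 9.07 CPM in any of the other 12 libraries. Since the 2 proteins act as a pair, their ratio was taken in each library: S100a8 gave 0.649 to 2.89 counts for each count of S100a9, with a median of 1.17. Among Kupffer cell libraries the share of S100a8 in the 2 was lowest in KC KO 43, at 40.7% (95% Wilson interval 34.5 to 47.2). It was highest in KC WT 39, at 68.4% (62.1 to 74.2). These intervals did not overlap, but they cover counting error only and the 2 libraries are the extremes of their cell type.

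The specific granule genes Ltf, Ngp and Camp, all on chromosome 9, were high in the same few libraries. Ltf encodes the iron-binding protein lactoferrin. It was counted 997 times in KC KO 27 (65.7 CPM) and 5, 0 and 2 times in the other Kupffer cell libraries, so that 99.3% of its summed KC level came from that library. In EC it stood at 9.98 and 30.5 CPM under the WT label and at 5.01 and 1.32 CPM under the KO label, and both KO values lay below both WT values. In HSC it stood at 3.07 and 2.82 CPM against 0 and 9.34 CPM, and in HEP it was at 0.809 CPM or less. Ngp encodes a cystatin-like granule protein. It stood at 5.02 and 34.2 CPM in EC labelled WT against 10.7 and 0.834 CPM in EC labelled KO, at 0.832 and 2.18 CPM against 1.31 and 13.8 CPM in HSC, and at 0.402 and 3.07 CPM against 63.8 and 2.71 CPM in KC. Its HEP values ran from 0.255 to 2.71 CPM. Camp, the precursor of an antimicrobial peptide, was rarer: 4.43 CPM in EC WT 38, 3.80 CPM in HSC KO 20, 13.98 CPM in KC KO 27 and 1.22 CPM in HEP KO 25, with 3 libraries at 0 counts.

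Although Ltf and Ngp belong to the same granule, their balance was not constant. Ltf made up 50.7% of the counts of the 2 in KC KO 27 (48.5 to 52.9), 47.2% in EC WT 38 (43.8 to 50.6) and 40.3% in HSC KO 20 (35.2 to 45.6). In EC WT 34 the share was 66.5% (60.0 to 72.5) and in EC KO 6 31.9% (26.1 to 38.2). KC WT 39 and KC KO 43 had Ngp almost without Ltf: 0 of 47 counts were Ltf in KC WT 39, which allows a share of up to 7.56%, and 2 of 42 in KC KO 43 (1.32 to 15.8). These intervals are 95% Wilson intervals and cover counting error only, since the reads carried no molecular identifiers.

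The primary granule genes Mpo and Elane were near or at 0 in most libraries and set the high libraries apart from each other. Mpo was counted 371 times in KC KO 27 (24.5 CPM), 110 times in HSC KO 20 (7.61 CPM) and only 16 times in EC WT 38 (1.24 CPM). It was at 2.02 CPM in KC WT 39, 2.30 CPM in KC KO 43 and 2.19 CPM in HEP KO 25, at 0.278 CPM or less in the remaining 10 libraries, and at 0 counts in 5 of them. Elane gave 9.10 CPM in KC KO 27, 2.84 CPM in HSC KO 20, 2.13 CPM in HEP KO 25 and 1.48 CPM in EC WT 38, and 7 libraries held no count of it. KC KO 43 had 34 counts of Mpo and none of Elane, while KC WT 39 had 31 and 19.

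Mmp8 and Retnlg differed from these. Mmp8, neutrophil collagenase, was highest in Kupffer cells, at 4.49 and 2.22 CPM under the WT label and 9.83 and 0.812 CPM under the KO label. It was absent from EC WT 38 (0 counts, which allows up to 0.233 CPM), although that library was the second highest of the 16 for S100a8, S100a9, Ltf, Ngp, Camp and Retnlg. The other EC libraries held Mmp8 at 1.54, 1.74 and 0.556 CPM. Retnlg stood at 1.81 and 6.29 CPM in EC labelled WT against 1.32 and 0.487 CPM in EC labelled KO, and at 2.28 and 0.391 CPM in KC labelled WT against 11.4 and 1.96 CPM in KC labelled KO. In HSC it was at 0.960 CPM or less, and in HEP at 0.645 CPM or less.

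Lcn2, a siderophore-binding protein that hepatocytes also make, was the only member whose mean level was highest in hepatocytes. It stood at 17.6 and 5.52 CPM in HEP labelled WT and 9.48 and 12.4 CPM in HEP labelled KO, and at 2.37 and 5.28 CPM against 2.16 and 2.71 CPM in EC. In HSC it stood at 2.88 and 4.61 CPM against 0.830 and 8.37 CPM, and in KC at 3.55 and 2.35 CPM against 18.1 and 1.49 CPM. Hence HEP KO 25, highest in its cell type for S100a8, S100a9, Ngp, Camp, Mpo, Elane and Retnlg, had less Lcn2 than HEP WT 29 and HEP KO 41. Across the 16 libraries the standardized log2 CPM of Lcn2 had a correlation of r = 0.25 with the mean of the other 9 members, against r = 0.89 for S100a8, 0.86 for Ngp, 0.85 for Camp and S100a9, 0.76 for Retnlg, 0.75 for Mpo, 0.73 for Elane, 0.70 for Ltf and 0.44 for Mmp8. These are descriptions over libraries that share cell types and, for low genes, rest on few counts. All 10 members, Lcn2 included, were highest of the 16 libraries in KC KO 27.

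**Figure D2:**
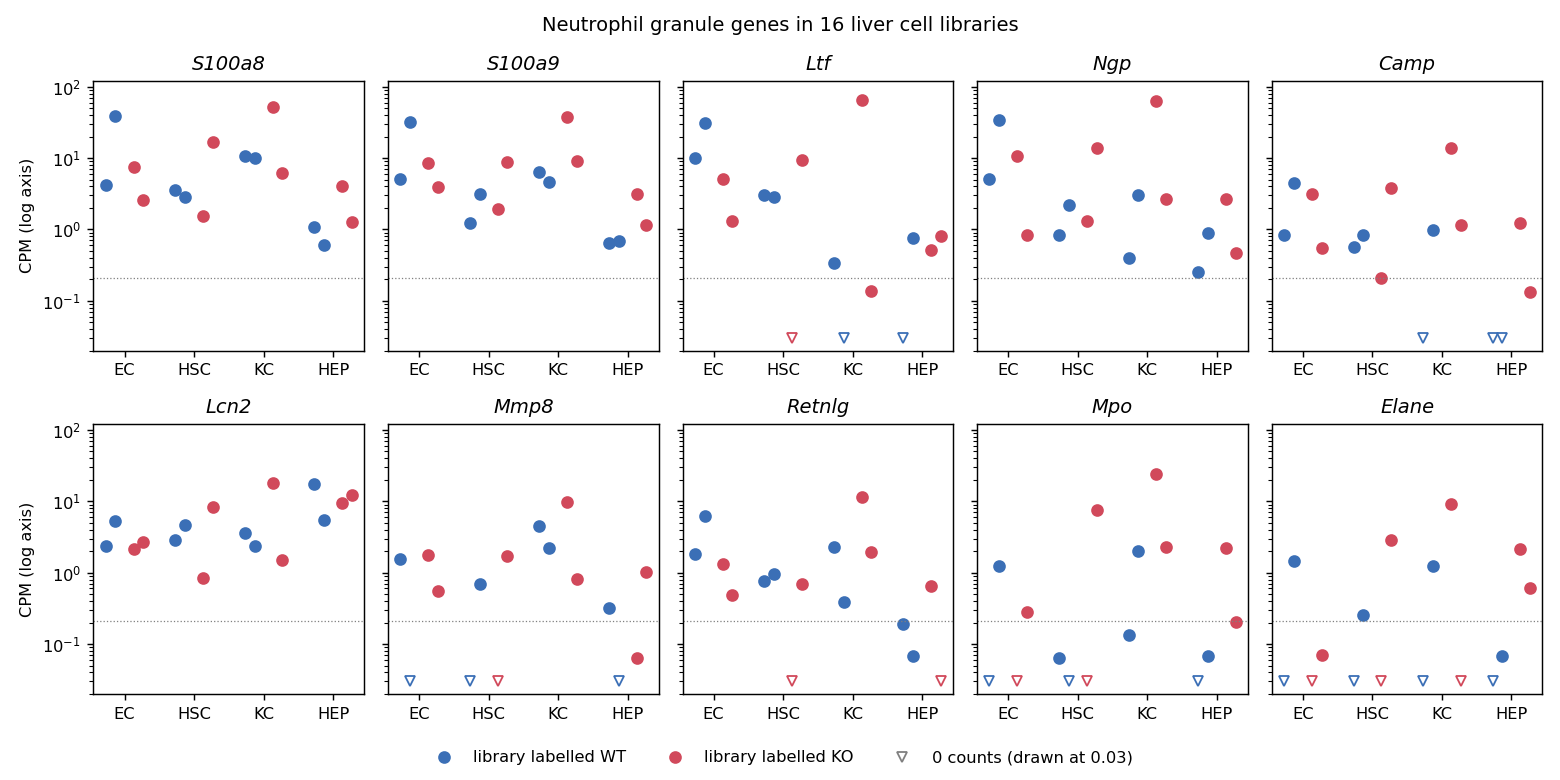
CPM of each of the 10 genes (log axis) in the 16 libraries, by cell type, with libraries labelled WT in blue and KO in red. Open triangles are libraries with 0 counts, drawn at 0.03, and the dotted line marks about 3 counts. A lone KO point tops the KC column in all 10 panels, from 9.10 CPM for Elane to 65.7 CPM for Ltf, while the highest EC point is a WT library for 9 of the 10 genes, Mmp8 being the exception.

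The stretches before the gene starts are shown for 5 members from the granule classes that moved apart between libraries: Mpo and Elane of the primary granule, Ltf and Ngp of the specific granule, and S100a9. Granule gene transcription is known to use the myeloid factors C/EBPε or C/EBPα and PU.1, and matches to a simple C/EBP motif (TTNNGNAA, or TTNCNNAA on the other strand) and a PU.1 motif (AGGAAG, or CTTCCT on the other strand) are in capitals. The sequences are from RefSeq on GRCm38.p6, given 5′ to 3′ on the strand of the gene and limited to bases outside annotated exons: chr11:87793534-87793580 (plus strand) for Mpo, chr10:79886062-79886246 (plus) for Elane, chr9:111019042-111019270 (plus) for Ltf, chr9:110419558-110419746 (plus) for Ngp and chr3:90695722-90695971 (minus) for S100a9.
Mpo: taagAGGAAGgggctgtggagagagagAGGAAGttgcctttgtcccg
Elane: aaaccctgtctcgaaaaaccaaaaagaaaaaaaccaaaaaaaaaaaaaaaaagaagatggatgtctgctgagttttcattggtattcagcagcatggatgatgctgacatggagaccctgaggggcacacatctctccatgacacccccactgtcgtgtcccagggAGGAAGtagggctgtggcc
Ltf: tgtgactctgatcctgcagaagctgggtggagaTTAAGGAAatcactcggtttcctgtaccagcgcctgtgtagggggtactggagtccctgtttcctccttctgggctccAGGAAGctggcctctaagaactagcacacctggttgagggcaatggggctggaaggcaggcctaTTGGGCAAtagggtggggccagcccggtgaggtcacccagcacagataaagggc
Ngp: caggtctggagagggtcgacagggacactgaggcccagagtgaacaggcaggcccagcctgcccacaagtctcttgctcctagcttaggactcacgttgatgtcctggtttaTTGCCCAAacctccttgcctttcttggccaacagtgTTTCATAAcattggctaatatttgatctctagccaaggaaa
S100a9: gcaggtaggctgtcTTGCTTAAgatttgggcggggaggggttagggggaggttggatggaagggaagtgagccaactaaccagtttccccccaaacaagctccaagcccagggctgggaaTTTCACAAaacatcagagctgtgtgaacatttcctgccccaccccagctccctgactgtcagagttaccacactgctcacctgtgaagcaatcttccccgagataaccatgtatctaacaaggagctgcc
In the whole 250 bases before the start, Mpo, Elane and Camp held no match to the C/EBP letters, while Ltf, S100a9 and Mmp8 held 2 matches each, Ngp held 3, and S100a8, Lcn2 and Retnlg held 1 each. The PU.1 letters matched 3 times in Mpo and Lcn2, 2 times in S100a8 and Camp, and once in Ltf, Elane and Mmp8. These 250 bases can run into annotated exons of the gene. The stretch before the first exon base was 0 bases in Lcn2, 47 in Mpo and 89 in Camp. Within such stretches Lcn2 held no match, Mpo 2 and Camp 1 of the PU.1 letters, and Ngp 2 of the C/EBP letters. The other members kept their counts. The C/EBP letters occurred in 7 of the 10 members against 36.8% of 32851 mouse promoters, and the PU.1 letters in 7 of 10 against 29.5%. No base of the printed stretches belonged to matches of both motifs. A match describes letters and is not a binding site.

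The make-up of the neutrophil RNA was then compared between libraries as shares of the summed counts of the 9 genes. Mpo and Elane together made up 11.6% of 4372 counts in KC KO 27 (10.7 to 12.6), 16.0% of 941 in HSC KO 20 (13.8 to 18.5) and 26.1% of 257 in HEP KO 25 (21.1 to 31.8). In EC WT 38 they made up 1.83% of 1912 counts (1.32 to 2.54). EC WT 34 and EC KO 6 held none among 409 and 543 counts, which allows at most 0.930% and 0.702%. The share was 3.27% of 153 counts in EC KO 46 (1.40 to 7.42). A low share was not particular to EC: it was 0.637% of 157 counts in HSC WT 32, 1.87% of 214 in HSC WT 40, and none of 72 in HSC KO 8 and of 39 in HEP WT 29. Among the 4 libraries highest in their cell type, EC WT 38 was the one with little Mpo and Elane. Among the other Kupffer cell libraries the primary share was 13.3% in KC WT 39 (10.2 to 17.1) and 9.44% in KC KO 43 (6.84 to 12.9) but 0.543% in KC WT 31 (0.149 to 1.96).

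The share of Ltf, Ngp and Camp separated KC KO 27 from its cell type in another way. It was 49.8% there (48.3 to 51.3), 46.5% in EC WT 38 (44.3 to 48.8) and 41.4% in HSC KO 20 (38.3 to 44.6), but 2.99% in KC WT 31 (1.68 to 5.27), 16.4% in KC WT 39 (13.05 to 20.5) and 16.4% in KC KO 43 (12.9 to 20.6). In these 3 Kupffer cell libraries, S100a8 and S100a9 made up 69.0%, 59.7% and 62.8% of the counts, against 31.2% in KC KO 27, and for both shares the interval of KC KO 27 lay apart from those of the other 3.

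**Figure D3:**
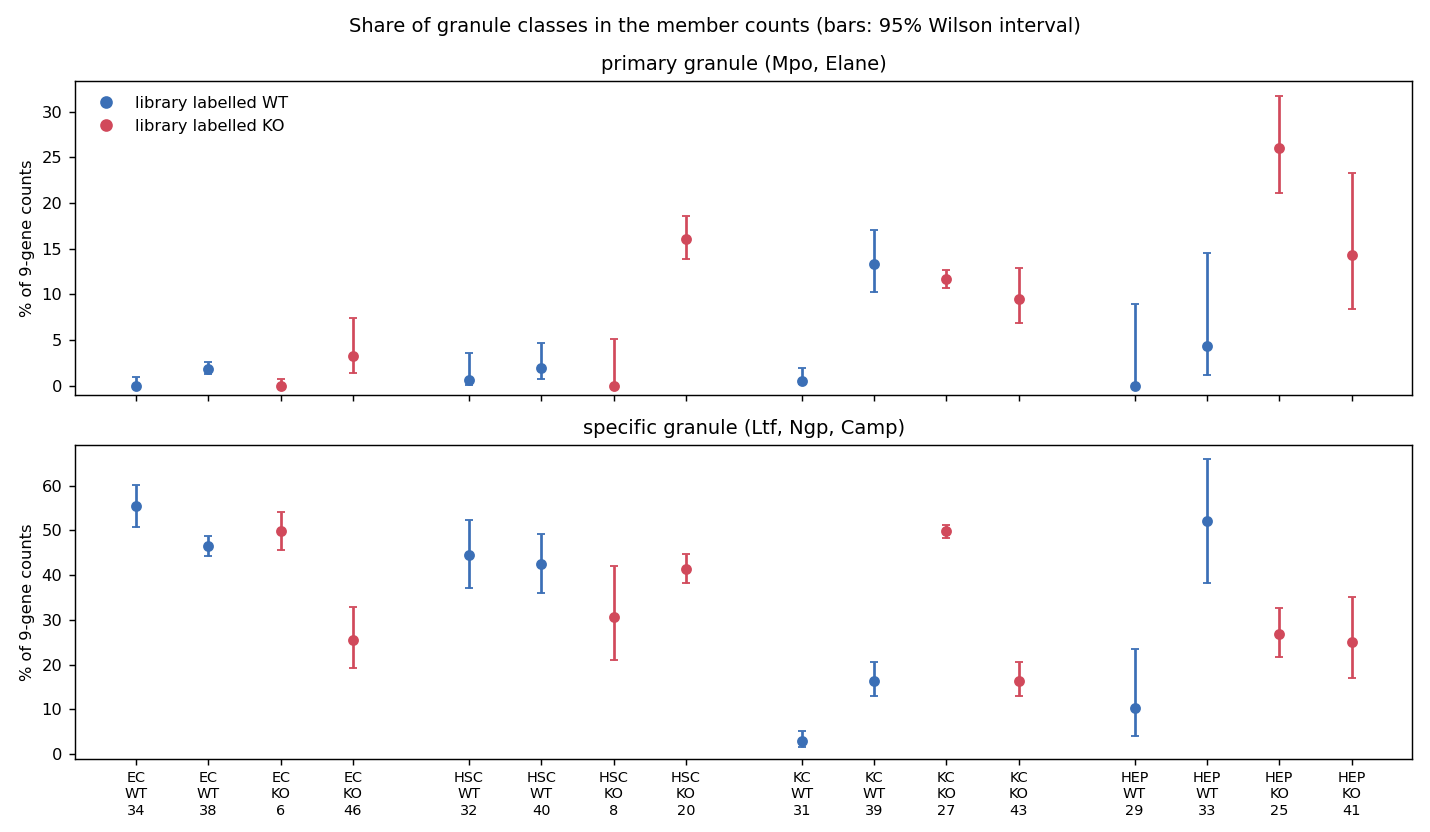
Share of the counts of 9 genes (percent, linear axes) taken by Mpo and Elane (upper panel) and by Ltf, Ngp and Camp (lower panel) in each library, with 95% Wilson intervals as bars and labels as colours. The primary granule share is under 4% in the 4 EC libraries and 11.6%, 16.0% and 26.1% in KC KO 27, HSC KO 20 and HEP KO 25.

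Whether the 10 genes followed the genotype label was tested within each cell type with edgeR's quasi-likelihood test, with Benjamini-Hochberg adjustment over all genes tested. No member passed an adjusted p of 0.05 in any of the 4 cell types. In EC 0 of 8 tested members passed, while 2.08% of 14631 genes did. In HSC 0 of 8, in KC 0 of 9 and in HEP 0 of 5 tested members passed, and in these 3 cell types 0.00% of genes did. At an unadjusted p under 0.05 there were 1 of 8 members in EC, 0 of 8 in HSC, 3 of 9 in KC and 0 of 5 in HEP, beside 15.0%, 8.76%, 5.09% and 7.11% of all genes tested. DESeq2 called 1 member in EC (Ltf) and 1 in KC (Ngp), where it called 6.72% and 0.519% of genes, and 0 in HSC and HEP. Mpo and Elane in EC and HSC and Ltf in KC did not pass the filter on low counts. Nor did Camp, Mpo, Elane, Mmp8 and Retnlg in HEP. The filter asks for a minimum CPM in 2 libraries, not only for counts there. Ltf in KC and Mpo in HSC failed it with 997 and 110 counts in a lone library. With 2 libraries a label, an exact permutation test of a lone value cannot go below a 2-sided p of 0.333. Nothing in the labels says that the libraries of a group came from separate animals, so the p-values measure the spread between these libraries.

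In EC the estimates were mostly on the lower side under the KO label. The log2 fold change (KO against WT label, ± an approximate SE derived from the test) was -2.69 ± 0.77 for Ltf (adjusted p = 0.176), -2.16 ± 0.96 for Retnlg, -2.11 ± 0.99 for S100a8, -1.79 ± 1.19 for Ngp, -1.56 ± 0.83 for S100a9, -0.63 ± 0.72 for Lcn2, -0.53 ± 1.14 for Camp and 0.52 ± 1.63 for Mmp8. The median over the 8 was -1.68, beside -0.01 over all genes. Ltf and Retnlg were lower in both KO than in both WT libraries, 2 of 8 members, and 24.1% of all tested genes were. No member was higher in both, as 24.2% of genes were. The study itself reports Ltf as downregulated in KO endothelium, by sequencing and by qRT-PCR on further mice, which were not examined here. Without EC WT 38 the estimates for S100a8, S100a9, Ngp, Camp and Lcn2 changed sign to 0.18, 0.25, 0.14, 1.08 and 0.02, Mmp8 to -0.46, and those of Ltf and Retnlg shrank to -1.70 and -1.04. Without EC WT 34, 3 members passed: S100a8 at -2.94 (adjusted p = 0.0382), Ltf at -3.25 (adjusted p = 0.0498) and S100a9 at -2.32 (adjusted p = 0.0498), beside 4.41% of genes, with EC WT 38 as the lone WT library and the spread taken from the 2 KO libraries alone. In EC, 288 of the 305 genes called were lower under the KO label, among them all 10 hepatocyte markers, and the hepatocyte marker sum (24702 and 11973 CPM under WT, 2838 and 2005 CPM under KO) was highest in EC WT 38 too. Its part in the values of the members was not tested.

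In Kupffer cells every estimate was on the higher side under the KO label: 4.22 ± 1.51 for Ngp, 3.91 ± 1.77 for Camp, 3.60 ± 1.43 for Mpo, 2.85 ± 2.40 for Elane, 2.17 ± 1.23 for Retnlg, 1.97 ± 0.71 for S100a9, 1.62 ± 1.09 for Lcn2, 1.41 ± 0.88 for S100a8 and 0.54 ± 1.15 for Mmp8. Their adjusted p-values were 0.933 to 0.978. The median was 2.17, beside -0.02 over all genes. S100a9, Camp and Mpo were higher in both KO than in both WT libraries, 3 of 9 members, and 20.5% of all tested genes were, while 0 of 9 were lower in both, as 16.1% of genes were. Without KC KO 27 the estimates were 0.69 for Ngp, 1.29 for Camp, 1.15 for Mpo, 0.67 for S100a9 and 0.46 for Retnlg, and those of S100a8, Lcn2, Mmp8 and Elane turned to -0.75, -1.03, -2.09 and -6.16, the last against a KO library with 0 counts. Without KC KO 43, Mpo and Ngp passed, with adjusted p = 0.0413 for Mpo and 0.000579 for Ngp, beside 0.0804% of genes. There KC KO 27 was the lone KO library, so that the spread came from the 2 WT libraries alone. Ltf passed too, but entered that fit only through its counts in KC KO 27.

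Stellate cells showed the same dependence on a lone library. In hepatocytes S100a8 and S100a9 kept their sign with each library left out, while Ltf, Ngp and Lcn2 did not. A kept sign was not particular to hepatocytes. It was also seen for S100a9, Ngp, Camp, Mpo and Retnlg in KC and for Ltf and Retnlg in EC. In HSC, Retnlg and Mmp8 kept theirs in the fits that tested them. In HSC the estimates were 2.37 ± 1.21 for Ngp, 1.54 ± 1.09 for S100a8, 1.54 ± 1.43 for Camp, 1.33 ± 2.24 for Mmp8, 1.32 ± 0.95 for S100a9, 0.70 ± 1.76 for Ltf, 0.33 ± 1.08 for Lcn2 and -1.27 ± 1.65 for Retnlg, with adjusted p-values of 0.674 to 0.962. Their median was 1.32, beside 0.02 over all genes. Retnlg was lower in both KO than in both WT libraries, 1 of 8 members, and 19.3% of all tested genes were, while 0 of 8 were higher in both, as 20.5% of genes were. Without HSC KO 20, S100a8, S100a9, Ngp, Camp, Lcn2 and Ltf turned to -1.15, -0.25, -0.28, -1.81, -2.25 and -8.52, and Retnlg went to -6.76. The last 2 of these set WT libraries against 0 counts in HSC KO 8, so their size depends on the model's prior count. In HEP the estimates were 1.71 ± 0.80 for S100a9, 1.67 ± 0.80 for S100a8, 1.48 ± 1.13 for Ngp, 0.86 ± 1.5 for Ltf and 0.01 ± 0.54 for Lcn2, with a median of 1.48 beside -0.02 over all genes. S100a8 and S100a9 were higher in both KO than in both WT libraries, 2 of 5 members, and 16.4% of all tested genes were, while 0 of 5 were lower in both, as 23.2% of genes were. Without HEP KO 25 they stood at 0.73 and 0.92, and Ngp turned to -0.16.

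**Figure D4:**
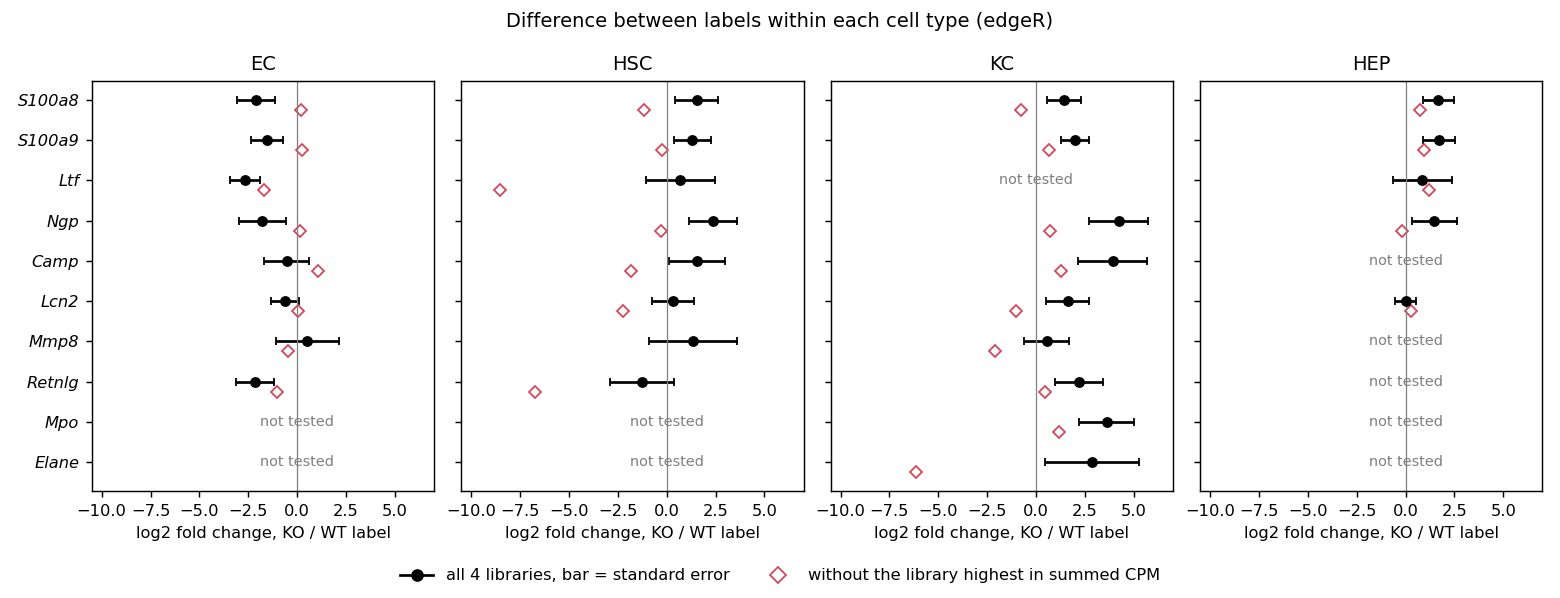
Log2 fold change of KO over WT label in each cell type (edgeR), as black points with an approximate standard error as bars, and as open red diamonds without the library that was highest in summed CPM. Estimates far from 0 among the diamonds (-8.52 and -6.76 in HSC, -6.16 in KC) set a lone library at 0 counts against the other label. The points lie on the KO-lower side in EC for 7 of 8 genes and on the KO-higher side in KC for 9 of 9, and no gene passed an adjusted p of 0.05.

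Most estimates in EC lay on the other side of 0 from those in KC, HSC and HEP, and this difference was tested as an interaction in a fit of all 16 libraries. No member passed in any of the 6 pairs of cell types. Against KC, 0 of 10 members passed while 2.06% of genes did, with a smallest adjusted p of 0.187. At an unadjusted p under 0.05 there were 3 of 10 members, beside 14.0% of genes. Against HSC and HEP, 0 of 10 members passed while 0.0349% and 0.0697% of genes did, each with 1 of 10 members at an unadjusted p under 0.05, beside 4.85% and 9.12% of genes. For HSC against KC, HSC against HEP and KC against HEP, 0 of 10 passed at a background of 0.593%, 0.0755% and 0.0116%, with 0 at an unadjusted p under 0.05, beside 11.7%, 7.16% and 8.17% of genes. DESeq2 called 1 member in the EC against KC interaction (Ltf), beside 6.17% of genes, and 0 in the other 5.

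Between cell types, the mean S100a8 level over 4 libraries was 19.8 ± 21.9 CPM in KC (SD), 13.2 ± 17.1 CPM in EC, 6.10 ± 7.00 CPM in HSC and 1.74 ± 1.53 CPM in HEP. The order KC, EC, HSC, HEP held for the mean of S100a9, Ltf, Ngp, Camp and Retnlg too, and the SD was near or above the mean nearly everywhere. The place of KC in it depended in part on KC KO 27. Without that library the KC means were 8.96 CPM for S100a8, 6.71 CPM for S100a9, 0.157 CPM for Ltf, 2.06 CPM for Ngp, 0.710 CPM for Camp and 1.54 CPM for Retnlg. These lay below the EC means of all 4 libraries, and for Ltf, Ngp and Camp also below the HSC means. With the highest library of each cell type left out, however, EC stood lower than KC for S100a8 (4.74 CPM), S100a9 (5.85 CPM) and Retnlg (1.21 CPM). EC stayed higher than KC for Ltf (5.44 CPM), Ngp (5.53 CPM) and Camp (1.51 CPM). HSC then stood lower than KC for Ngp and Camp (1.44 and 0.538 CPM) and higher for Ltf (1.96 CPM). On the same basis the mean sum of the 9 genes was 24.5 CPM in KC and 25.7 CPM in EC. KC and EC, and EC and HSC, were not distinguished by the test: no member passed between EC and KC, where 32.0% of genes did, or between EC and HSC, where 26.0% did. S100a8 and S100a9 were higher in KC than in HEP by 2.50 ± 0.90 and 2.23 ± 0.74 on the log2 scale (adjusted p = 0.0329 and 0.0217), and Lcn2 was lower by 2.09 ± 0.78 (adjusted p = 0.0383), so that 3 of 10 members passed against 55.6% of all genes. Without KC KO 27, S100a8 and S100a9 no longer passed and stood at 1.65 and 1.81, and without HEP KO 41 none of the 3 passed. Without HEP WT 29 or HEP WT 33, S100a9 alone passed. Among the fits with a library left out, Lcn2 passed only without HSC KO 8, HSC KO 20 or KC KO 27. Between HSC and KC no member passed, where 42.9% of genes did, but without HSC KO 20 S100a8, S100a9, Mpo and Retnlg did, 4 of 10 beside 33.8% of genes. Between EC and HEP and between HSC and HEP, 1 of 10 members passed, Lcn2, at -3.24 ± 0.82 (adjusted p = 0.00495) and -2.53 ± 0.80 (adjusted p = 0.0166), against 58.7% and 58.4% of genes. The EC against HEP call of Lcn2 held with each library left out, whereas the HSC against HEP call was lost without HSC WT 32, HSC WT 40, HSC KO 8, HEP WT 29 or HEP KO 41.

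These comparisons with hepatocytes depended on scaling, since TMM sets the effective size of hepatocyte libraries lower. On library size alone, the median over all genes moved from 0.54 to 1.85 for EC against HEP and from 0.24 to 1.23 for KC against HEP. On that scale no Lcn2 difference passed (-1.88, -1.44 and -1.06 for EC, HSC and KC against HEP), and 6 of 10 members were higher in EC than in HEP (S100a8, S100a9, Ltf, Ngp, Camp and Retnlg), as 58.9% of all genes were.

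Other genes known from neutrophils were read from lists by stage. Of 8 further primary granule and precursor genes, 3 were tested in EC, 2 in HSC, 3 in KC and 2 in HEP, and none was called between labels. Prtn3, proteinase 3, and Serpinb1a, an inhibitor of the elastase, were the most abundant, at means of 1.32 and 6.04 CPM, and neither peaked in KC KO 27 (Prtn3 3.59 CPM in KC KO 43, Serpinb1a 17.0 CPM in KC WT 39). Chosen after their values were seen, Ctsg and Fcnb exceeded 1 CPM only in KC KO 27, at 1.71 and 3.23 CPM, while Ms4a3 had no count in any library. Of 8 further specific granule genes, 6, 6, 6 and 2 were tested in EC, HSC, KC and HEP and none was called. Cybb and Cyba, subunits of the phagocyte oxidase that macrophages also make, dominated that list and were near 1082 to 1879 and 598 to 950 CPM in KC, so the list sum (2044 to 2609 CPM in KC) does not show the neutrophil pattern. Of these 8 genes, 5 were highest within KC in KC KO 27, 5 within EC in EC WT 38 and 2 within HSC in HSC KO 20, and Cd177, a neutrophil surface protein, and Chil3 were the only members of the list to peak in all 3. Cd177 stood at 11.1, 6.53 and 4.84 CPM there and at most 2.99 CPM elsewhere. Others did not, named after their values were seen: Pglyrp1 was at 2.65 CPM in EC WT 34 and 0.698 CPM in EC WT 38, Adam8 was at 18.7 CPM in KC WT 39 and 6.53 CPM in KC KO 27, and Olfm4 had no count in HSC KO 20.

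Gelatinase granule and secretory vesicle genes were led by Cfp and Slc11a1, both expressed by Kupffer cells at 3168 to 4770 and 1334 to 1534 CPM, and none of the 8, 6, 7 and 4 tested in EC, HSC, KC and HEP was called. Of 18 genes of the mature neutrophil, 13 were tested in EC and 2 fell under the KO label: G0s2, a lipase inhibitor abundant in fat-storing cells, by 3.03 ± 0.27 (adjusted p = 0.019) and Wfdc21 by 2.23 ± 0.38 (adjusted p = 0.0453). They were 2 of 13 beside 2.08% of genes in EC. All 13 estimates were on the lower side (median -2.02, beside -0.01 over all genes). Of the 13, 8 were at an unadjusted p under 0.05, beside 15.0% of all genes tested in EC. Without EC WT 38, 10 of 14 were on the lower side (median -1.31). A fit without the 857 hepatocyte-enriched genes leaves out G0s2 and Wfdc21 themselves. In it 0 of the other 11 passed, as 0.00% of genes did, and all 11 estimates were on the lower side (median -1.30). The hepatocyte marker sum moved with these values as given above, and its part in them was not tested. G0s2 and Wfdc21 are also expressed outside neutrophils here, Wfdc21 at 397 to 432 CPM in HEP and G0s2 at 351 to 593 CPM in HSC. None of the 13, 13 and 7 tested in HSC, KC and HEP was called. The 2 most abundant, Il1b and Cxcl2, are inflammatory mediators and stood at 2015 to 6419 and 751 to 1872 CPM in KC. The chemokine receptor Cxcr2, named after its values were seen, was at 10.6 CPM in EC WT 38, 2.56 CPM in HSC KO 20 and 1.12 CPM in KC KO 27. It was at 0 counts in the other KC libraries. Ly6g, which defines mouse neutrophils on the cell surface, reached at most 0.791 CPM, in KC KO 27.

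RNA of other blood cells was high in some of the same libraries, and no monocyte, eosinophil, basophil, mast cell, erythroid or lymphocyte gene of the lists was called between labels in any cell type. KC KO 27 was also highest for the eosinophil genes Prg2 and Ccr3, at 50.5 and 317 CPM against at most 1.96 and 117 CPM in the other KC libraries. Its summed level of 9 eosinophil, basophil and mast cell genes was 387 CPM against 104 to 123 CPM, with 7 of 9 above 3 counts against 3 to 4. Ccr3 made up most of the sum in KC KO 27, and it was also counted in KC libraries with little Prg2. Its monocyte sum, 448 CPM, was the lowest of the 4 KC libraries (468 to 1186 CPM in the others). In KC that sum was carried by Treml4 and Cd300e, at 89.9 and 253 CPM in KC KO 27 against 148 to 563 and 258 to 459 CPM in the others, and Plac8, which led the list over all 16 libraries, stood at 33.0 CPM against 36.5 to 147 CPM. Other genes of the list went the other way: Ccr2, the receptor of inflammatory monocytes, was at 30.8 CPM in KC KO 27 against at most 6.84 CPM, Ly6c2 at 7.19 against at most 1.07 CPM and F13a1 at 23.7 against at most 13.9 CPM. These genes besides Plac8 and Cd300e were named after their values were seen. EC WT 38 had the highest sum in EC of 12 lymphocyte genes, 803 CPM against 176 to 297 CPM, with Ighm at 513 CPM. Its sum of 10 erythroid genes was highest too, at 295 CPM against 105 to 141 CPM. By gene, it was highest in EC for 10 of the 12 lymphocyte and 6 of the 10 erythroid genes. HSC KO 20 had 94.3 CPM of lymphocyte genes against 21.5 to 65.6 CPM, of which the immunoglobulin gene Ighm made up 83.2 CPM. Without Ighm its sum was 11.1 CPM, against 33.9 and 29.6 CPM in the WT libraries and 10.9 CPM in HSC KO 8, and 5 of the 12 genes were at 0 counts. Its erythroid sum, 9.89 CPM, was the lowest of the 4 HSC libraries. It also had the highest Kupffer cell marker sum in HSC, 2461 CPM, with HSC WT 32 close to it at 2345 CPM and with S100a8 at 3.52 CPM in the latter. Markers of other liver cells were high in these libraries too. KC KO 27 had the highest HSC and EC marker sums in KC, 1135 and 1227 CPM against at most 766 and 1020 CPM. Its hepatocyte marker sum, 9695 CPM, was below the 11738 CPM of KC KO 43. EC WT 38 had the highest HSC marker sum in EC, 1541 CPM against at most 1290 CPM, and the lowest KC marker sum, 494 CPM. The part of these cells in the values of the members was not tested.

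Of 11 granulocyte growth factor and chemokine genes, Cxcl12 and Cxcl1 were the most abundant. Cxcl12, which retains neutrophils in the marrow, was at 7670 to 10026 CPM in HSC. Cxcl1, a chemokine that draws neutrophils into tissue, was at 420 to 1382 CPM in KC and 238 to 1053 CPM in HSC. None of the 6, 7, 8 and 5 tested genes of this list was called between labels in EC, HSC, KC and HEP. Other S100 genes did not follow S100a8 and S100a9: of 8, S100a10 was lowest in KC, at 20.5 to 39.5 CPM, S100a16 was highest in EC, at 250 to 419 CPM, and none was called between labels.

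Among the 13816 genes that averaged 1 CPM or more, those whose log2 CPM followed the mean of the 10 members most closely over the 16 libraries were Cd177 (r = 0.82), Wdr4 (0.82), Chil3 (0.81), Ugt1a7c (0.79), Ighg1 (0.79), Itgae (0.75), Cx3cr1 (0.74), Iglc2 (0.74), Igfbp6 (0.73) and Slfn1 (0.73). Chil3, a chitinase-like protein of neutrophils and macrophages, stood at 33.8, 14.7 and 6.15 CPM in KC KO 27, EC WT 38 and HSC KO 20 and at most 7.87 CPM in the other 13 libraries. Ighg1, an immunoglobulin heavy chain constant region, stood at 27.1, 7.54 and 12.0 CPM in the same libraries and at most 4.67 CPM elsewhere. The correlations are a description over libraries of 4 cell types and carry no test.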

How the data were processed

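RNA of 4 FACS- or gradient-isolated liver cell types was sequenced in 16 libraries, and the authors deposited raw read counts per gene, 1 table per library, with gene identifier and symbol. The submitters' processing notes name Trimmomatic 0.32, HISAT2 2.1.0, HTSeq 0.9.1, edgeR and the GRCm38 build. The annotation release and strand setting are not given in the sources used here, and 98.9% of identifiers were in GENCODE M21. The labels name a stranded mRNA kit and the series' design text Smart-seq2. Counter summary lines (42.5% to 57.5% of the sum of all lines) were left out of library sizes. Gene totals were 12872706 to 15690506 counts (median 14806833). Depth limits a member at 0 counts to about 0.2 CPM.

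CPM were computed from the deposited counts. No pair of libraries of a group agreed within sampling noise (chi-square per gene 29.6 to 108.9), so none was treated as a library deposited again. That does not show that they came from separate animals. Tests used edgeR 4.0.16 in R 4.3.3 (filterByExpr, TMM, quasi-likelihood test, Benjamini-Hochberg adjusted p under 0.05): KO against WT label within each cell type on its 4 libraries, and cell type pairs and interactions on all 16. The quasi-likelihood test gives no standard error. The SE printed with edgeR estimates is the absolute log2 fold change divided by the square root of the F statistic, an approximation. Scripts were checked on simulated data. The settings varied were the tool (DESeq2 1.42.0), the scaling (RLE), the filter (none, or at least 10 counts in every library), the genes (without 857 hepatocyte-enriched genes), the libraries (all 16 libraries in a joint fit, or each left out in turn) and, added after seeing the data, library size alone. Genes described were the members, called genes of the other lists (at most 4 per cell type), the 2 most abundant of each list, and the 10 genes most alike. Lists that the text does not describe (platelet, acute phase) are not reported beyond a count: none of the platelet genes tested and 5 acute phase genes were called, all 5 in EC and lower under the KO label. Members and lists were chosen with earlier results of these data known. Shares of counts carry 95% Wilson intervals. Promoter letters were searched on both strands in Python 3.11.15.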

Additional observations from a re-analysis of the deposited data

Results flagged for a closer look

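Values were checked in 44 sets of 4 libraries (each member and the sum of 9 members, in each cell type), and a library was singled out where its gap to the nearest other exceeded Dixon's 95% critical share of the range. Of the 44 sets, 19 were singled out, 9 of them in KC KO 27. For normally distributed values chance does this in about 1 of 20 sets. These CPM are skewed, hold zeros and span both labels, so that their chance rate is not known, and the sets share libraries.

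In KC KO 27 the sum of 9 members (288.3 CPM against 24.7 for the next), S100a8 (52.49 CPM), S100a9 (37.46), Ltf (65.75 against 0.335), Ngp (63.83), Camp (13.98), Lcn2 (18.13), Mpo (24.46) and Elane (9.10 against 1.24) stood apart. In HSC KO 20 the sum (65.08 CPM against 13.7), S100a8 (16.53), Ngp (13.83), Mpo (7.607 against 0.064) and Elane (2.835) did. In EC WT 38 S100a8 (38.69 CPM against 7.38), S100a9 (31.70 against 8.50) and Elane (1.476 against 0.0695) did, and in HEP KO 25 Camp (1.225 against 0.135) and Mpo (2.192 against 0.202). The HEP values rest on 19 and 34 counts. The sums of 9 members in EC and in HEP were not singled out.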

How the results depend on the processing

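Depth leaves a member at 0 counts unresolved below 0.191 to 0.233 CPM. The cause of the changes below was not tested. No paired analysis was possible because the groups compared share no replicate number.

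Between labels, 0 members were called in each cell type. DESeq2 called 1 in EC and 1 in KC, beside 6.72% and 0.519% of genes. Without a filter on low counts 4 were called in EC, 1 in HSC and 5 in KC. Over all genes that setting called 1259 of 23953, 663 of 24592 and 159 of 22595. It lets in members that the filter leaves out, such as Ltf in KC, which enters through its counts in KC KO 27. Leaving out a library gave 0 to 3 in EC and 0 to 3 in KC and 0 in HSC and HEP. Over all genes, 305 were called in EC, against 983 with DESeq2, 1259 without a filter, 489 with at least 10 counts in every library, 0 without hepatocyte-enriched genes and 3 to 692 with a library left out (3 without EC KO 46, 58 without EC KO 6, 692 without EC WT 34). In HSC 0 genes became 406 with DESeq2, 663 without a filter and 178 in the joint fit. In KC 0 became 72, 159 and, with a library left out, 0 to 12 (without KC KO 43). In HEP 0 became 27, 227 and 0 to 55 (without HEP KO 25).

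For the interactions, no filter gave 3 members for EC against HSC, 5 for EC against KC, 3 for EC against HEP, 1 for HSC against KC and 1 for KC against HEP, DESeq2 gave 1 for EC against KC, and leaving out any library gave 0 in all 6. Over all genes, DESeq2 called 94 to 1062 of 17214 in the interactions, with 1062 for EC against KC, and the main setting 2 to 355. No filter called 305 to 1302 of 29481: 305 for EC against HSC, 1302 for EC against KC and 980 for EC against HEP. It called 1123 for HSC against KC and 374 for KC against HEP. For cell type pairs, EC against HEP went from 1 to 2 with RLE size factors, 3 with DESeq2, 6 without a filter, 2 with at least 10 counts, 6 on library size alone and 1 to 3 with a library left out. HSC against HEP went from 1 to 3 without a filter, 0 on library size alone and 0 to 1 with a library left out. KC against HEP went from 3 to 5 with DESeq2, 8 without a filter and 0 to 4 with a library left out. HSC against KC went from 0 to 1 with RLE size factors, 2 with DESeq2, 5 without a filter, 1 with at least 10 counts and 0 to 4 with a library left out. EC against HSC and EC against KC gave 1 and 3 without a filter, beside 5262 and 5946 of 29481 genes. Over all genes, DESeq2 called 10462 of 17214 for EC against HEP, 10042 for KC against HEP and 7976 for HSC against KC. RLE size factors called 10141 for EC against HEP and 7390 for HSC against KC. With at least 10 counts, 6077 and 4390 of 8553 passed in those pairs. Without a filter, 10371 of 29481 passed for EC against HEP, 10308 for HSC against HEP, 9802 for KC against HEP and 7578 for HSC against KC. On library size alone 10146 genes were higher and 2143 lower in EC than in HEP, against 5716 and 4387. For HSC against HEP 12015 passed on that scale.

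With a library left out, the log2 fold change between labels ranged in EC from -2.96 to 0.18 for S100a8, -2.32 to 0.25 for S100a9, -4.44 to 0.14 for Ngp, -2.13 to 1.08 for Camp, -1.07 to 0.0205 for Lcn2 and -0.46 to 6.99 for Mmp8. In HSC it ranged from -1.15 to 2.42 for S100a8, -0.25 to 2.12 for S100a9, -8.52 to 1.70 for Ltf, -0.28 to 3.24 for Ngp, -1.81 to 2.46 for Camp and -2.25 to 1.20 for Lcn2. In KC it ranged from -0.75 to 2.23 for S100a8, -1.03 to 2.48 for Lcn2, -6.16 to 9.003 for Elane and -2.09 to 1.40 for Mmp8. In HEP it ranged from -0.16 to 6.42 for Ltf, -0.16 to 2.68 for Ngp and -0.56 to 1.005 for Lcn2.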
